A study of Mus musculus with 28 samples.

Results

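The 8 genes described here encode subunits of voltage-gated potassium channels of neurons: the Kv1 pore-forming subunits Kcna1 and Kcna2, the Kv beta subunit Kcnab2, the Kv3 subunits Kcnc1 and Kcnc2, the Kv4 subunit Kcnd2 and the Kv7 subunits Kcnq3 and Kcnq5. They were taken from the tables by these symbols and are 8 of the 23038 genes in the tables. RNA-seq of poly(A) RNA was available for dissected embryonic midbrain (E18.5, with 6 hu/hu and 6 wt/wt libraries), and for midbrain and cortex of mice at postnatal day 21 (P21, with 4 of each genotype per region), which makes 28 libraries. Both genotypes had the BL6 background. Nova1 hu/hu mice are homozygous for the I197V substitution in the neuronal splicing factor NOVA1, introduced with Cas9 together with a pair of silent changes that form a genotyping site, and were backcrossed to C57BL/6J. Nova1 wt/wt mice carry the unedited mouse allele and were siblings from heterozygous crosses. The edit is present in every cell and from conception, so a direct effect on a channel gene and a developmental one cannot be told apart. The labels do not say which libraries, if any, came from the same mouse, and p-values measure the spread between these libraries only.

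Voltage-gated potassium channels open on depolarization, repolarize the membrane and set how long an action potential lasts and how often a neuron can fire. Each channel is a tetramer of pore-forming alpha subunits, usually of one family, with auxiliary subunits attached. Kv1 channels with beta subunits sit on axons next to the nodes of Ranvier and at terminals, Kv3 channels allow fast firing, Kv4 channels carry the transient A-type current of dendrites, and Kv7 channels carry the slow M-current that muscarinic receptors close.

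Levels are given as TPM, read counts divided by exon length and scaled to the same sum in every library, computed from the deposited counts and exon lengths. Differences are log2 fold changes from edgeR's quasi-likelihood test on the counts, and a gene was called where p was under 0.05 and its Benjamini-Hochberg value over all genes tested was under 0.1. Total counts ranged from 18550922 to 45134998 per library (median 30560080). The least counted gene, Kcna1 at E18.5, had 75 to 273 counts per library, and all 8 genes passed the filter on low counts in every comparison. Of the region markers, 8 of 8 midbrain and brainstem genes were called higher in P21 midbrain than in cortex, with Foxa2 at 0 in every cortex library, and 6 of 6 cortical excitatory genes were called lower. In bulk tissue, fewer cells of a type and less RNA per cell cannot be told apart.

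The order of the 8 genes differed between the tissues. At E18.5 (n = 12) Kcnd2 stood highest at 83.9 ± 4.17 TPM (SD), followed by Kcnab2 at 37.7 ± 6.17, Kcnq3 at 31.6 ± 2.14, Kcnc1 at 22.3 ± 1.64, Kcna2 at 11.9 ± 1.33, Kcnc2 at 9.58 ± 1.31, Kcnq5 at 6.61 ± 0.951 and Kcna1 at 2.29 ± 0.499 TPM. The ranges of Kcnab2 and Kcnq3 overlapped, as did those of Kcna2 with Kcnc2 and of Kcnc2 with Kcnq5. The other neighbours in this order did not overlap in any library.

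In P21 midbrain (n = 8) Kcnab2 came first at 411 ± 20.6 TPM and Kcna1, the lowest gene at E18.5, came second at 106 ± 5.39. Kcna2 followed at 94.2 ± 2.87, Kcnc1 at 67.1 ± 2.01, Kcnd2 at 56.5 ± 2.85, Kcnc2 at 55.8 ± 3.06, Kcnq3 at 29.6 ± 2.55 and Kcnq5 at 8.03 ± 0.444 TPM. Only the neighbours Kcna1 and Kcna2 and the neighbours Kcnd2 and Kcnc2 overlapped. Kcnab2 was above 98.5% of all genes in this tissue, and Kcnq5 above 52.5%.

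In P21 cortex (n = 8) Kcnab2 was again first at 400 ± 11 TPM, and the 7 alpha subunit genes lay closer together, from Kcna2 at 60.7 ± 1.55, Kcnd2 at 55.1 ± 2.65 and Kcna1 at 49.7 ± 1.62 to Kcnc1 at 38.7 ± 1.41, Kcnq5 at 37.8 ± 2.22, Kcnq3 at 37.7 ± 3.24 and Kcnc2 at 36.8 ± 1.46 TPM. The last 4 could not be ordered beyond the spread between libraries. Neighbouring ranges separated only between Kcnab2 and Kcna2 and between Kcna1 and Kcnc1. The level of Kcnq3 relative to the others depends on its gene model. Its deposited exon length is 2787 nt, against 14708 nt for the union of exons in GENCODE M21. The same counts over the longer length would give means of 5.98, 5.62 and 7.14 TPM in the 3 tissues. For Kcna1 the deposited length is 8970 nt against 4780 nt, which with the same counts would raise its means to 4.30, 199 and 93.2 TPM. For Kcnab2 it is 3782 nt against 5578 nt, which with the same counts would lower its means to 25.6, 279 and 271 TPM. Reads were not counted again over the GENCODE exons, so these values change the length only and are not levels under that model. Fold changes of single genes do not depend on these lengths.

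**Figure D1:**
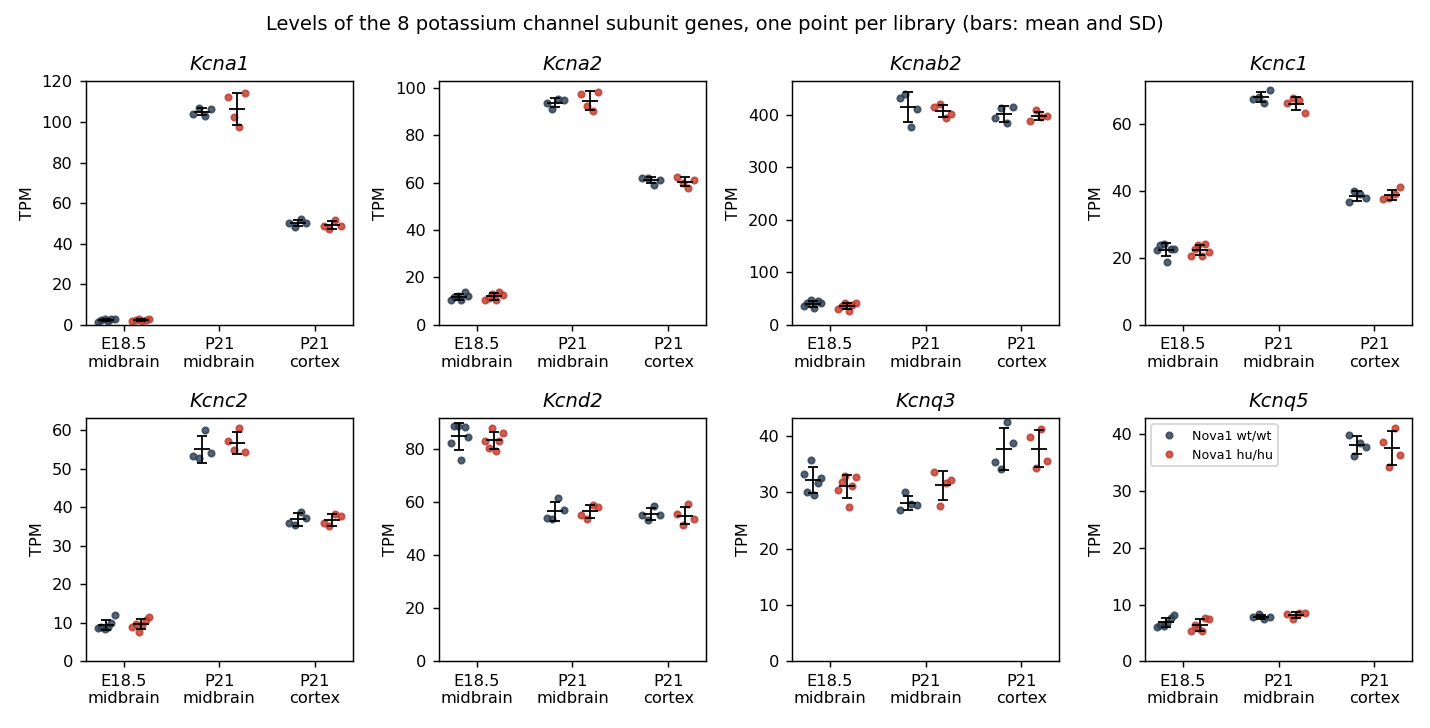
TPM (vertical axis, from 0) of each of the 8 genes in every library, by age and region (horizontal axis) and genotype (colour), with the mean and SD of each group. Kcna1, Kcna2, Kcnab2, Kcnc1 and Kcnc2 were low at E18.5 and high at P21, Kcnd2 had its highest values at E18.5, and Kcnq5 stood at 34.2 to 41.1 TPM in cortex and below 9 TPM in all midbrain libraries, while points of both genotypes overlapped in every panel.

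Upstream sequence is shown for the genes whose patterns departed most from the rest, Kcnd2, which alone was called lower at P21 than at E18.5, and Kcnq5, with the greatest difference between cortex and midbrain. The RefSeq promoter table (GRCm38.p6) held 6 of the 8 genes; Kcna1 and Kcnq3 were not in it. Each window is the 250 bases before an annotated start, 5′ to 3′ on the strand of the gene, at chr6:21215096-21215345 (plus strand) for Kcnd2 and chr1:21962651-21962900 (minus strand) for Kcnq5. Capitals mark matches, on either strand, to the motifs searched.
Kcnd2: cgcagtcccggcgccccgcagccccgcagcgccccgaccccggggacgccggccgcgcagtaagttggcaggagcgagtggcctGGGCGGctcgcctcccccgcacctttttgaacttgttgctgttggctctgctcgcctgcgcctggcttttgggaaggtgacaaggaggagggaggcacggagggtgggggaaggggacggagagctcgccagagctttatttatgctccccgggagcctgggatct
Kcnq5: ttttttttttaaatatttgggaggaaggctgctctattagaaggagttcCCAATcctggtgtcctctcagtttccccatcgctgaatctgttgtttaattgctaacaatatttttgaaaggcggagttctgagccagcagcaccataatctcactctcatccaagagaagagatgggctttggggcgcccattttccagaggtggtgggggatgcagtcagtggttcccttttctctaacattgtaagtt
The Kcnd2 window had a GC content of 68.8%, above 89.0% of the 32851 promoter windows in the table, and 1 match to GGGCGG, a motif found in 32.7% of all windows. The Kcnq5 window shown had a GC content of 44.4%, above 22.1% of windows, and 1 match to CCAAT, found in 33.8%. Neither held TATAAA (12.4% of windows), TGACGTCA (1.55%), CACGTG (6.02%) or TTCAGCACC (0.301%). No match overlapped another motif. Kcnq5 had another annotated start, whose window at chr1:21961943-21962192 (minus strand) is not shown. That window had a GC content of 60.8%, above 73.9% of windows, and no match to any motif searched, so the values above hold for the window shown only.

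The first comparison asked how the levels changed between E18.5 and P21 in midbrain. 7 of the 8 genes were called higher at P21 and 1 lower, against 42.3% higher and 43.1% lower among the 16330 genes tested. 5 of the 8, namely the Kv1 subunits, Kcnab2 and the Kv3 subunits, were called at least 2-fold higher, against 15.9% of all genes, and none was called at least 2-fold lower, against 14.7%. The median log2 fold change of the 8 genes was 2.27, and that of all genes was -0.02. The 8 genes were chosen with earlier results of these data known, so the comparisons with all genes, here and by region below, are descriptions. Age cannot be told apart from anything else that differed between the E18.5 and P21 sets of libraries, including the composition of the tissue. Between these sets the summed level of 6 oligodendrocyte markers went from 111 to 22481 TPM on average, that of 7 immature and dividing cell markers from 659 to 52.0 TPM, and that of 7 neuron markers from 3931 to 4962 TPM. Their part in the differences below was not tested.

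Kcna1 (chr6:126636463-126645801, minus strand), which encodes Kv1.1, the low-threshold axonal channel subunit mutated in episodic ataxia, showed the largest change. In E18.5 midbrain it ranged from 1.33 to 3.05 TPM (median 2.39), and in P21 midbrain from 97.4 to 114 TPM (median 105). The ranges did not come near each other, and the log2 fold change was 5.72 (SE 0.084), or 52.5-fold (95% interval 46.6 to 59.3, edgeR adjusted p = 3.81e-26). Of the 16330 genes tested, Kcna1 ranked 48th by its rise.

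Kcna2 (chr3:107090883-107115005, plus strand), which encodes Kv1.2, the usual partner of Kv1.1 in axonal channels, lay between 10.3 and 14.0 TPM at E18.5 (median 11.9) and between 90.1 and 98.4 TPM at P21 (median 94.3). Every P21 library was above every E18.5 library, and the log2 fold change was 3.19 (SE 0.050, edgeR adjusted p = 1.53e-25). Kcnab2 (chr4:152390744-152477549, minus strand), the beta subunit that binds the cytoplasmic side of Kv1 channels and takes part in their delivery to axons, lay between 26.8 and 47.0 TPM at E18.5 (median 38.9) and between 376 and 439 TPM at P21 (median 413). Its log2 fold change was 3.65 (SE 0.070, edgeR adjusted p = 4.96e-24), a 12.6-fold rise. Kcnab2 shares 125 nt of exon with Gm16334 on the same strand, which has no row of its own.

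The Kv1 genes on the same stretches of chromosome did not share the size of these changes. Kcna6, 62527 bases from Kcna1, averaged 37.6 TPM at E18.5 and 60.9 TPM at P21, a log2 fold change of 0.90. Kcna3, 52754 bases from Kcna2, averaged 13.9 and 9.04 TPM and fell by 0.42 on the log2 scale (edgeR adjusted p = 1.15e-05). Of the 8 Kv1 alpha genes, 6 passed the filter on low counts, and 5 of these rose while 1, Kcna3, fell. These neighbours were chosen by position on the chromosome.

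Both Kv3 genes rose, Kcnc2 more than Kcnc1. Kcnc1 (chr7:46396219-46438706, plus strand), which encodes Kv3.1, a channel of fast-spiking neurons, lay between 18.8 and 24.1 TPM at E18.5 (median 22.7) and between 63.3 and 70.4 TPM at P21 (median 67.4), a log2 fold change of 1.79 (SE 0.035, edgeR adjusted p = 5.96e-24). Kcnc2 (chr10:112269898-112466304, plus strand), which encodes Kv3.2, lay between 7.58 and 12 TPM at E18.5 (median 9.26) and between 52.7 and 60.5 TPM at P21 (median 54.5), a log2 fold change of 2.74 (SE 0.068, edgeR adjusted p = 8.25e-22). Neither gene had overlapping ranges between the ages. All 4 Kv3 genes were called at least 2-fold higher at P21. The summed level of 5 parvalbumin and GABA neuron markers averaged 262 TPM at E18.5 and 704 TPM at P21, and its part in the Kv3 changes was not tested.

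Kcnd2 (chr6:21215346-21729805, plus strand), which encodes Kv4.2, the dendritic A-type channel, was the only one of the 8 genes called lower at P21. It ranged from 75.7 to 88.6 TPM at E18.5 (median 83.7) and from 53.5 to 61.3 TPM at P21 (median 56.1). The ranges did not overlap, and the gene fell by 0.37 on the log2 scale (SE 0.034, edgeR adjusted p = 3.32e-10), a 1.29-fold drop. The size of this drop depended on the scaling: the TPM values lie further apart, while means of RPKM scaled by edgeR's TMM factors were 24.4 and 19.1.

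Both Kv7 genes were called higher at P21, by less than Kcna1, Kcna2, Kcnab2, Kcnc1 and Kcnc2. Kcnq5 (chr1:21398399-21962650, minus strand), which encodes Kv7.5, ranged from 5.29 to 8.19 TPM at E18.5 (median 6.39) and from 7.47 to 8.50 TPM at P21 (median 8.08). These ranges overlapped, while the log2 fold change of 0.48 (SE 0.073, edgeR adjusted p = 1.34e-06) passed the test. Kcnq5 shares 237 nt of exon with a GENCODE gene on the other strand, Gm26580, which is not a row of its own in the tables, and reads of both cannot be told apart there if strand was not used. Kcnq3 (chr15:65986374-66286636, minus strand), which encodes Kv7.3, a subunit of the M-channel, ranged from 27.4 to 35.8 TPM at E18.5 (median 31.6) and from 26.9 to 33.5 TPM at P21 (median 28.9). Its call as higher at P21 (log2 fold change 0.11, SE 0.047, edgeR adjusted p = 0.033) had no stable direction: without scaling factors, which moved the median of all genes from -0.02 to -0.17 on the log2 scale and the calls from 6903 higher and 7044 lower to 5829 and 8236, it was -0.05, and its mean TPM was lower at P21. With wt/wt libraries alone it was 0.0051 and with hu/hu libraries alone 0.23. The call was also lost without E18.5 hu/hu replicate 4 (0.10), P21 hu/hu replicate 1 (0.09) or 4 (0.10), or P21 wt/wt replicate 2 (0.09).

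**Figure D2:**
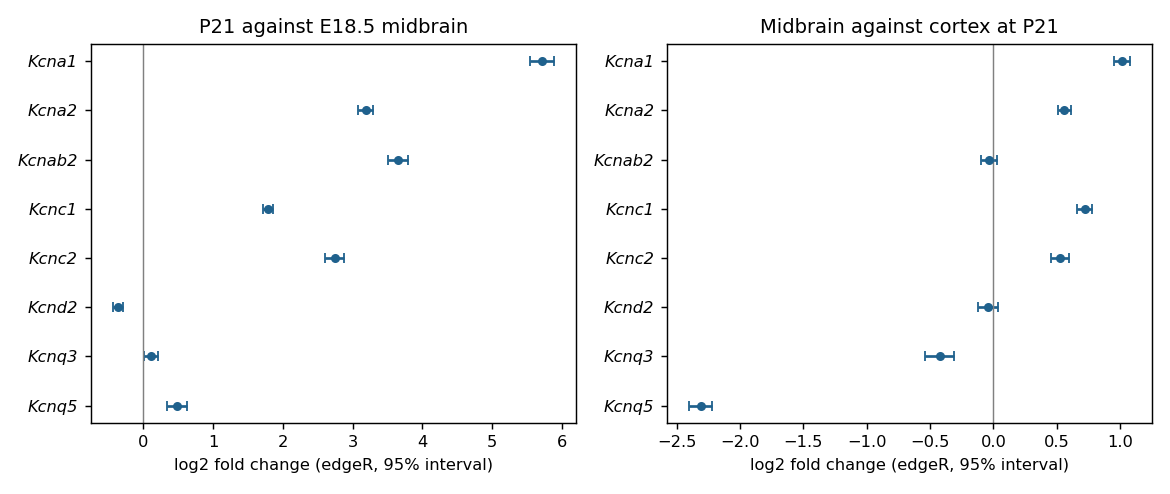
Log2 fold changes (horizontal axis) of the 8 genes with 95% intervals from edgeR, for P21 against E18.5 midbrain (20 libraries) and for midbrain against cortex at P21 (16 libraries). The age changes run from -0.37 for Kcnd2 to 5.72 for Kcna1, the region differences from -2.31 for Kcnq5 to 1.02 for Kcna1, and the region intervals of Kcnab2 and Kcnd2 include 0.

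The second comparison set P21 midbrain against P21 cortex. 4 of the 8 genes were called higher in midbrain, against 37.9% of the 16345 genes tested, 2 were called lower, against 37.6%, and 2 were not called. Of these, 1 was at least 2-fold higher (7.82% of all genes) and 1 at least 2-fold lower (7.59%). The median log2 difference of the 8 genes was 0.25 and that of all genes 0.00.

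All 4 genes called higher in midbrain were Kv1 and Kv3 alpha subunits. Kcna1 ranged from 97.4 to 114 TPM in midbrain and from 47.4 to 52.0 TPM in cortex (medians 105 and 49.4), a 2.02-fold difference (95% interval 1.93 to 2.12, edgeR adjusted p = 2.65e-18). Kcnc1 had the next largest difference, with 63.3 to 70.4 TPM in midbrain and 36.8 to 41.1 TPM in cortex (log2 0.72, SE 0.028, edgeR adjusted p = 1.13e-16). Kcna2 differed by 0.56 (SE 0.025, edgeR adjusted p = 1.62e-15) and Kcnc2 by 0.53 (SE 0.036, edgeR adjusted p = 6.01e-12) on the log2 scale. None of these 4 genes had a cortex library inside its midbrain range. The oligodendrocyte markers also differed, at 22481 TPM summed in midbrain and 6692 TPM in cortex, as did the parvalbumin and GABA neuron markers, at 704 and 455 TPM, and their part was not tested.

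Kcnq5 and Kcnq3 were called lower in midbrain than in cortex. Kcnq5 ranged from 7.47 to 8.50 TPM in midbrain and from 34.2 to 41.1 TPM in cortex (medians 8.08 and 38.1), a 4.96-fold higher level in cortex (95% interval 4.66 to 5.29; log2 midbrain over cortex -2.31, SE 0.044, edgeR adjusted p = 3.11e-22). No library of one region came near the other. Kcnq3 ranged from 26.9 to 33.5 TPM in midbrain and from 34.2 to 42.4 TPM in cortex, and the log2 difference was -0.42 (SE 0.055, edgeR adjusted p = 3.44e-07). Cortical excitatory markers summed to 147 TPM in midbrain and 1990 TPM in cortex, and their part in the Kv7 differences was not tested.

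Kcnab2 and Kcnd2 did not pass the test between regions. Kcnab2 averaged 411 TPM in midbrain and 400 TPM in cortex, with a log2 difference of -0.03 (95% interval -0.09 to 0.02, edgeR adjusted p = 0.283). Kcnd2 averaged 56.5 and 55.1 TPM, with a log2 difference of -0.04 (95% interval -0.12 to 0.04, edgeR adjusted p = 0.317). For both genes these intervals leave room for differences of no more than 0.12 on the log2 scale. The TPM means were higher in midbrain, while the fold changes pointed to cortex. With RPKM scaled by edgeR's TMM factors, the means in midbrain and cortex were 139 and 142 for Kcnab2 and 19.1 and 19.7 for Kcnd2.

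Ratios between subunit genes show how the make-up of each channel family shifted at the RNA level. Ratios were compared by age, by region and by genotype in each tissue, in a family of 30 two-sided exact permutation tests over libraries, adjusted together and read at an adjusted p under 0.05. Absolute ratios carry the uncertainty in exon length given above. Differences between groups do not where the ratio is of 1 gene to another, but do for the ratio with a sum. In E18.5 midbrain there was 0.189 of Kcna1 for each unit of Kcna2 (geometric mean over libraries, in TPM), against 1.12 there at P21 and 0.818 in cortex. The log2 ratio differed by 2.57 between the ages (exact permutation p = 7.94e-06, the smallest possible; adjusted p = 0.000119) and by 0.46 between the regions (exact permutation p = 0.000155, the smallest possible; adjusted p = 0.000666). The ratio of Kcnc1 to Kcnc2 went the other way with age, from 2.35 at E18.5 to 1.20 at P21, and was 1.05 in cortex. Its log2 difference was -0.96 between the ages (exact permutation p = 7.94e-06, the smallest possible) and 0.20 between the regions (exact permutation p = 0.000777, adjusted p = 0.00233).

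Within the Kv7 family, Kcnq3 over Kcnq5 was 4.81 in midbrain at E18.5, 3.68 there at P21 and 0.995 in cortex. The step between regions, 1.89 on the log2 scale, separated all midbrain from all cortex libraries (exact permutation p = 0.000155, the smallest possible), and the step between ages was -0.39 (exact permutation p = 0.000191, adjusted p = 0.000714).

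Kcnd2 over Kcnd3, the other main neuronal Kv4 subunit, was 2.60 in midbrain at E18.5, 2.41 in midbrain at P21 and 3.25 in cortex. Both the age difference of -0.11 on the log2 scale (exact permutation p = 0.000968, adjusted p = 0.00264) and the region difference of -0.43 (exact permutation p = 0.000155, the smallest possible) passed. There were 2.65 units of Kcnab2 for each unit of Kcna1 and Kcna2 together at E18.5, 2.05 in P21 midbrain and 3.62 in P21 cortex. This ratio was lower in P21 midbrain than in either other tissue, by 0.36 (exact permutation p = 6.35e-05, adjusted p = 0.000635) and by 0.82 (exact permutation p = 0.000155, the smallest possible) on the log2 scale. With the GENCODE exon lengths but the same counts, an alternative chosen after seeing the data, this ratio was 1.61, 0.960 and 1.78. It was then lower in P21 midbrain by 0.74 than at E18.5 and by 0.89 than in cortex.

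**Figure D3:**
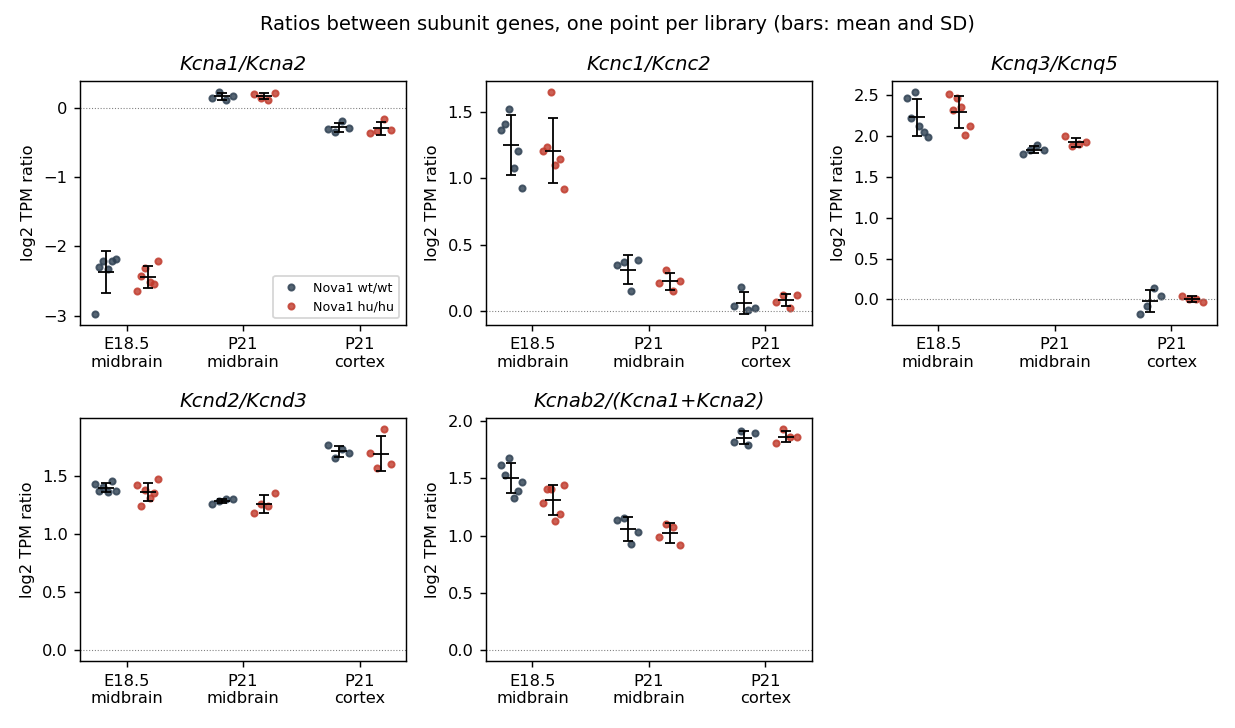
Log2 TPM ratios (vertical axis) between subunit genes in every library, by age and region (horizontal axis) and genotype (colour), with group means and SD. Kcna1/Kcna2 went from below -2 at E18.5 to above 0 in P21 midbrain, Kcnq3/Kcnq5 fell to about 0 in cortex, and Kcnab2/(Kcna1+Kcna2) had its lowest mean in P21 midbrain.

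The summed level of all 40 alpha subunit genes of the Kv families in the tables gives the share held by each family. The 7 alpha genes described here held 31.0% ± 0.859 (SD) of it at E18.5 (n = 12), 41.0% ± 1.20 in midbrain at P21 (n = 8) and 30.8% ± 1.01 in cortex (n = 8). Kcnd2 alone held 15.5% ± 0.730 at E18.5 and 5.55% ± 0.374 in P21 midbrain. The Kv1 family held 14.1%, 27.7% and 17.4% in the 3 tissues and the Kv3 family 16.2%, 33.8% and 19.7%, while the Kv4 family held 23.1%, 8.85% and 7.97% and the Kv7 family 17.7%, 9.79% and 13.4%. Ranges of E18.5 and P21 midbrain libraries did not overlap for any of these 4 families. These shares use the deposited exon lengths and are descriptions without a test. The summed levels in the 3 tissues were 76.6, 282 and 179 TPM for Kv1 and 88.2, 344 and 202 TPM for Kv3. They were 125, 90.1 and 81.8 TPM for Kv4 and 96.2, 99.7 and 138 TPM for Kv7. The Kv7 share was thus lower in P21 than in E18.5 midbrain without a lower summed level (83.3 to 108 TPM at E18.5, 93.3 to 104 TPM at P21).

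Among the 97 other potassium channel, auxiliary and clustering genes listed with these 8, 85 passed the filter in the age comparison, where 58 were called higher at P21 and 18 lower (median log2 fold change 0.82). Of all 16330 genes tested, 42.3% were called higher and 43.1% lower. The 4 with the largest rise were Kcng4, a silent Kv subunit, at 5.20, Kcnj10, the inward rectifier Kir4.1 of glia, at 4.69, Lgi3 at 4.60 and Kcns3, another silent Kv subunit, at 3.77 on the log2 scale. Kcnh4 fell the most, by 5.58, from a mean of 37.1 to 0.674 TPM, followed by Kcnv1, which fell by 2.36, Kcnk10, which fell by 1.91, and Kcne2, which fell by 1.52 with overlapping ranges of 0.187 to 13.5 TPM and 0.163 to 8.43 TPM. Of the 12 Kv auxiliary genes other than Kcnab2 tested, 9 rose and 3 fell, and of the 10 genes of Kv clustering partners tested, 9 rose and none fell. Kcna1 rose more than any of these 85 genes.

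In the region comparison 35 of the 85 tested genes were called higher in midbrain and 41 lower, against 37.9% and 37.6% of all 16345 genes tested. The 4 largest differences towards midbrain were those of Kcng4 (2.61 on the log2 scale), Kcnj5 (2.02), Kcnj10 (1.94) and Kcnh8 (1.92). Towards cortex they were those of Kcnh3 (-5.83), Kcnv1 (-5.37), Kcnj4 (-5.15) and Kcnh4 (-4.65), all larger than the -2.31 of Kcnq5. Kcnh3 averaged 99.6 TPM in cortex and 1.86 TPM in P21 midbrain.

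**Figure D4:**
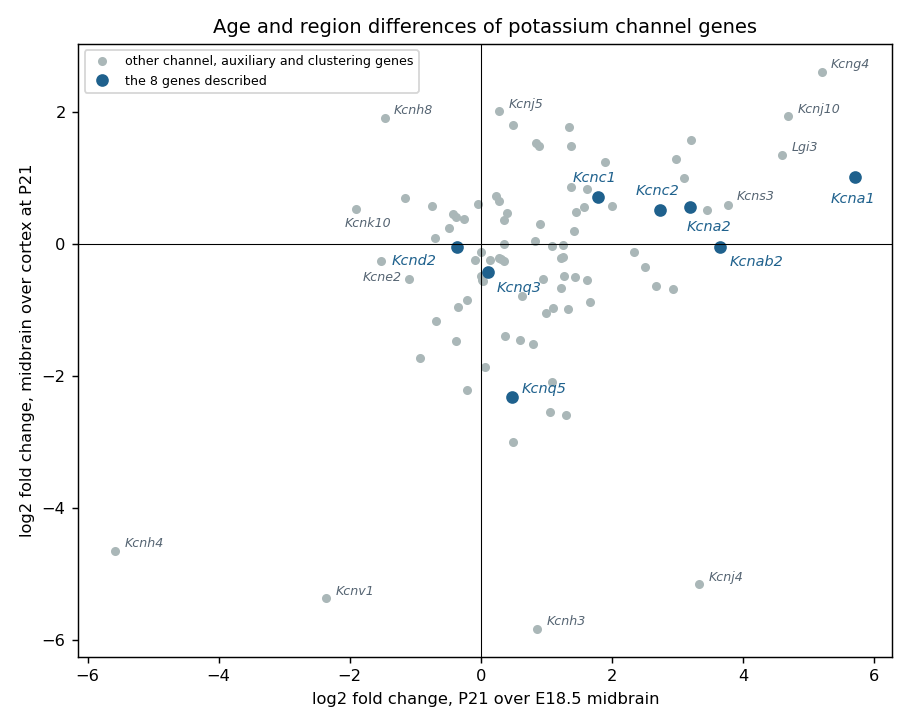
Log2 fold changes of the 8 genes (blue) and of 85 other channel, auxiliary and clustering genes (grey), with the age comparison on the horizontal axis and the region comparison on the vertical axis; both use the P21 midbrain libraries, so the axes are not independent. Kcna1, Kcna2, Kcnc1 and Kcnc2 lie to the upper right, Kcnab2 on the right at a region difference of -0.03, and Kcnq5 at the bottom at -2.31.

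The genes most like each of the 8 were found by the root mean square distance between centred log2(TPM + 1) profiles over the 28 libraries, among 15540 genes with a mean of at least 1 TPM. The libraries share age and region, so the distance mostly reads the levels of 3 tissues. Nearest to Kcna1 were S100b (distance 0.183), Cnp (0.205) and Plekhb1 (0.226). Nearest to Kcna2 were Aldoc (0.104), Dbndd2 (0.121) and Fndc5 (0.125), and to Kcnab2 Slc24a2 (0.149), Grin2c (0.166) and Htra1 (0.198). Kcnc1 was nearest to Lgmn (0.0782), Aatk (0.0893) and Mtap7d2 (0.0913), and Kcnc2 to Nrip3 (0.130), Ttll7 (0.161) and Setd7 (0.162). Kcnd2 was nearest to Arhgap21 (0.0608), Fbxo11 (0.0627) and Ythdc1 (0.0642), Kcnq3 to Kcnma1 (0.0877), Stxbp5 (0.0976) and Gnai1 (0.0989), and Kcnq5 to Phactr1 (0.133), Lmo7 (0.142) and Tiam2 (0.169). None of the 8 genes was among the 3 nearest of another. The closest pair of the 8 was Kcna2 and Kcnc2, at a distance of 0.256.

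The third comparison set Nova1 hu/hu against wt/wt libraries within each tissue. None of the 8 genes was called between genotypes by edgeR in any tissue, and neither was any other gene (0% of 15540 tested at E18.5, of 15972 in P21 midbrain and of 15767 in cortex). An unadjusted p under 0.05 was reached by 201 (1.29%), 426 (2.67%) and 450 (2.85%) genes in that order, and by 0, 1 and 0 of the 8. With DESeq2 the numbers called were 0, 1 and 0, none of them among the 8. With same-numbered libraries as pairs they were 0, 4 and 0, again none of the 8, while an unadjusted p under 0.05 was reached by 813, 735 and 897 genes and by 1, 1 and 0 of the 8. The ranges of hu/hu and wt/wt libraries overlapped for all 8 genes in all 3 tissues. The paper, also with edgeR and these thresholds, reported 1 gene as lower in hu/hu P21 midbrain, Gkn3, which is not among the 8.

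In P21 cortex the log2 fold changes, hu/hu over wt/wt, lay between -0.03 (Kcna1) and 0.02 (Kcnc1), and the widest 95% interval, that of Kcnq3, ran from -0.16 to 0.17. In P21 midbrain they lay between -0.04 (Kcnc1) and 0.15 (Kcnq3). In E18.5 midbrain, where counts were lower, they lay between -0.18 (Kcnab2) and 0.03 (Kcnc2), with an interval from -0.41 to 0.26 for Kcna1. Differences of any size inside such a 95% interval remain compatible with these libraries.

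Kcnq3 in P21 midbrain was the only case of an unadjusted edgeR p under 0.05 among the 8 genes in the 3 tissues without the pairs as a block. The hu/hu libraries had 33.5, 27.5, 31.7 and 32.2 TPM and the wt/wt libraries 26.9, 30.0, 27.8 and 27.6 TPM in order of replicate number. 3 of the 4 hu/hu values were above all wt/wt values and 1 lay inside their range. The log2 fold change was 0.15 (SE 0.065, 95% interval 0.02 to 0.29; edgeR adjusted p = 1.0). Leaving out any 1 library gave 0.12 to 0.21, with an unadjusted p under 0.05 in 2 of the 8 cases, and without scaling factors it was 0.13 and did not reach it. In the same comparison all 8 cerebellar granule and Purkinje cell markers had log2 fold changes below 0 (median -0.42, lowest -1.57), 5 of them with an unadjusted p under 0.05 and none called. Their summed level was 1013 to 1243 TPM in hu/hu and 1056 to 1230 TPM in wt/wt libraries with no marker at 0. The cortical excitatory markers summed to 136 to 145 TPM in hu/hu and 146 to 164 TPM in wt/wt libraries, without overlap. The part of both marker sets in the Kcnq3 values was not tested. The difference between this effect and that at E18.5 was 0.21 on the log2 scale (edgeR adjusted p = 1.0) in a comparison where 0% of 16330 genes were called and 1.86% had an unadjusted p under 0.05. Against P21 cortex it was 0.15 (edgeR adjusted p = 1.0), where 0% of 16345 genes were called and 2.28% had an unadjusted p under 0.05. With same-numbered libraries as pairs no gene was called in either of these comparisons. An unadjusted edgeR p under 0.05 was then reached by 741 genes by age and 598 by region, and by 2 and 0 of the 8.

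Kcnab2 at E18.5 ranged from 26.8 to 42.0 TPM in hu/hu libraries (median 36.4) and from 31.2 to 47.0 TPM in wt/wt libraries (median 40.8). The groups overlapped, and the hu/hu value was the lower one in 5 of 6 same-numbered pairs. The log2 fold change was -0.18 (SE 0.101, edgeR adjusted p = 1.0), and -0.19 with the pairs as a block (SE 0.047, unadjusted p of 0.000916, edgeR adjusted p = 0.928). The ratio of Kcnab2 to Kcna1 and Kcna2 together was 2.47 in hu/hu and 2.83 in wt/wt libraries, and was lower in hu/hu libraries in 6 of 6 pairs. Its log2 difference of -0.19 did not pass (exact permutation p = 0.0325, adjusted p = 0.0749); without wt/wt replicate 4 it was -0.23 and passed. As pairs the exact permutation p was 0.0312, the smallest that 6 pairs allow, with an adjusted p of 0.563 over 18 ratios. No other genotype difference of a ratio had an exact permutation p under 0.05, and with 4 libraries against 4 the smallest possible is 0.0286. Of the 84 other channel genes tested in each tissue none was called either, the smallest unadjusted p being that of Kcnab3, another Kv beta subunit, in P21 cortex (log2 0.13, SE 0.055, edgeR adjusted p = 1.0). Next to it in cortex were Kcnj2 (log2 0.28) and Kcnj4 (log2 -0.09). In P21 midbrain the log2 fold changes with the 3 smallest unadjusted p-values were those of Kcnk5 (-0.44), Kcnj16 (0.09) and Kcnv1 (-0.32), and at E18.5 those of Kcng2 (0.42), Kcnmb1 (0.88) and Kcnf1 (0.14).

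**Figure D5:**
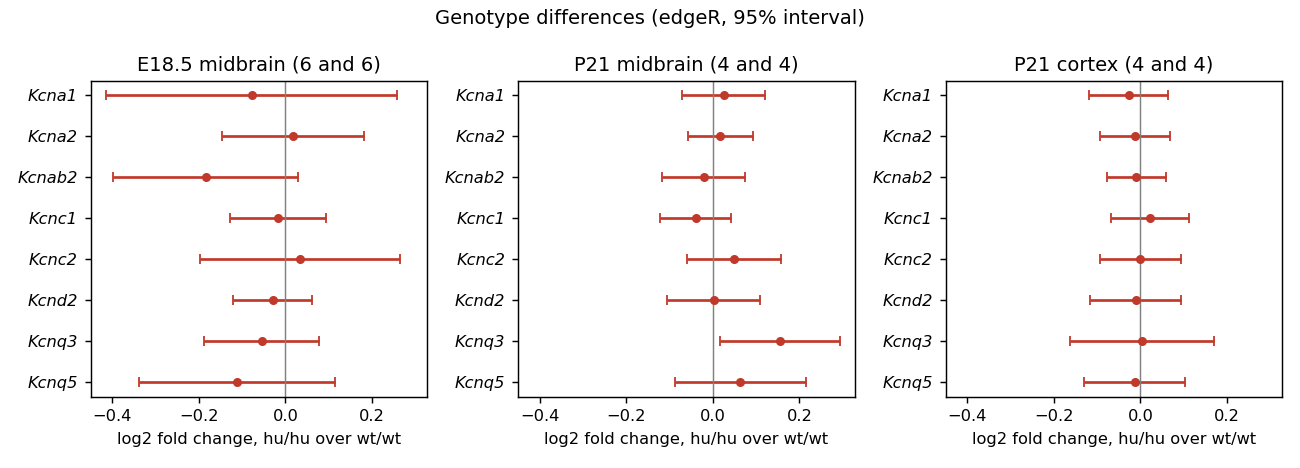
Log2 fold changes (horizontal axis) of the 8 genes between hu/hu and wt/wt libraries with 95% intervals from edgeR, with 1 panel for each tissue. All intervals include 0 except that of Kcnq3 in P21 midbrain, which runs from 0.02 to 0.29 and whose adjusted p is 1.0.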

How the data were processed

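Poly(A) RNA was prepared with Trizol and TruSeq kits and sequenced as paired ends. The authors aligned reads to mm10 (GRCm38) with OLego v1.1.7 and deposited, per gene, an expected count made with Quantas v1.0.9, an exon length and an RPKM value. The annotation version and strand setting are not given in the sources used here. The deposited RPKM values followed from the counts, lengths and library totals (largest relative difference 2.27e-13) and were not used further. TPM was computed from unrounded counts and exon lengths.

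Counts were rounded and tested with edgeR 4.0.16 (glmQLFit, glmQLFTest, TMM factors, filterByExpr; R 4.3.3) over all genes, within the libraries of each comparison, with no covariate; the age and region tests averaged the genotypes, and genotype by age and by region were interaction terms. The code was tested on simulated data. DESeq2 1.42.0, other scalings, no filter, a stricter threshold, replicate blocks and leaving out each library were alternatives, and the paired test of the ratios and their GENCODE exon lengths were added after seeing the data. The members and gene lists were chosen with earlier results of these data known. The text names all 8 members; of the other channel genes the 4 called with the largest rise and fall by age and region and the 3 with the smallest p by genotype; and the 3 nearest genes by profile. Replicates differed by more than sampling noise (smallest chi-square per degree of freedom 4.79). Same-numbered libraries of the genotypes deviated together (correlations 0.256 to 0.499 at E18.5, 0.266 to 0.300 in P21 midbrain, 0.252 to 0.310 in P21 cortex). Blocked genotype values are therefore given for the counts of genes and for Kcnab2 and its ratio at E18.5. The blocked log2 fold change of Kcnq3 in P21 midbrain is not given. Positions come from RefSeq GRCm38.p6 (22959 of 23038 Entrez identifiers matched) and exon unions from GENCODE M21. Precision is limited by counting only for low genes, and intervals reflect the spread between libraries. 1 of the ratios tested, which counts in the adjustment, is not reported here.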

Additional observations from a re-analysis of the deposited data

Results flagged for a closer look

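Of 84 sets of values checked (levels and ratios in 6 groups), 4 had 1 library far from the others; chance alone flags about 1 in 20 sets, here 4.20. Kcnc1 stood at 18.8 TPM in E18.5 wt/wt replicate 4, with the other 5 between 22.4 and 24.1 TPM. Kcnq5 stood at 7.47 TPM in P21 midbrain hu/hu replicate 2, with the other 3 between 8.37 and 8.50 TPM. The log2 ratio of Kcna1 to Kcna2 was -2.97 in E18.5 wt/wt replicate 1, with the others between -2.32 and -2.18. The log2 ratio of Kcnc1 to Kcnc2 was 0.15 in P21 midbrain wt/wt replicate 3, with the others between 0.35 and 0.38. No difference of a genotype effect between ages or regions was called for any of the 8 genes.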

How the results depend on the processing

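The calls of the 8 genes by age and region, other than that of Kcnq3 by age, kept their direction and passed the test under RLE factors, no scaling factors, no filter, DESeq2, an adjusted p under 0.05 and each library left out. No genotype difference of the 8 genes was called under any of these. In P21 midbrain 1 gene was called with DESeq2 and 4 with same-numbered libraries as a replicate block, against 0. With the block none of the 8 was called by genotype, while Kcnq3 lost its age call (0.12), for which the numbers did not pair the libraries (correlations -0.167 to 0.179 by age and -0.216 to -0.119 by region). Counting only calls of at least 2-fold gave 5003 genes by age and 2519 by region, against 13947 and 12337. Small log2 differences that did not pass the test, and that of Kcnq3 by age, changed sign with the setting. Without scaling factors they were Kcnc1 0.0050 at E18.5, Kcna2 -0.0057, Kcnd2 -0.021 in P21 midbrain, Kcnc2 -0.0088, Kcnq3 -0.0057 in cortex, Kcnq3 -0.046 by age, Kcna2 -0.047, Kcnc2 -0.031, Kcnd2 -0.014 for genotype by age, Kcnd2 -0.00060 for genotype by region. Kcnc2 in cortex was -0.000368 with RLE factors and -0.000422 with DESeq2, and the ratio of mean Kcnq3 levels by age was 0.12 on the log2 scale with TMM-scaled RPKM. Of the other ratios of mean levels by age and region, 10 moved with TMM-scaled RPKM by at least the SD between libraries and 5 did not. With 1 library left out, the genotype differences that changed sign ranged, at E18.5 Kcna1 -0.19 to 0.0067, Kcna2 -0.023 to 0.072, Kcnc2 -0.031 to 0.11, Kcnc1/Kcnc2 -0.13 to 0.016, and in P21 midbrain Kcna1 -0.0067 to 0.061, Kcnab2 -0.064 to 0.012, Kcnd2 -0.024 to 0.045, Kcna1/Kcna2 -0.011 to 0.027, Kcnd2/Kcnd3 -0.057 to 0.0023. In the other comparisons they ranged, in cortex Kcna2 -0.036 to 0.0059, Kcnab2 -0.023 to 0.0033, Kcnc2 -0.023 to 0.035, Kcnd2 -0.051 to 0.025, Kcnq3 -0.042 to 0.075, Kcnq5 -0.061 to 0.029, Kcna1/Kcna2 -0.059 to 0.017, Kcnq3/Kcnq5 -0.030 to 0.075, Kcnd2/Kcnd3 -0.093 to 0.020, Kcnab2/(Kcna1+Kcna2) -0.013 to 0.028, and for genotype by age Kcna2 -0.054 to 0.045, Kcnc1 -0.035 to 0.020, Kcnc2 -0.065 to 0.084, and for genotype by region Kcnab2 -0.056 to 0.025, Kcnd2 -0.021 to 0.057. The causes were not tested.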
